A study of Danio rerio with 3 samples.

Results

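The globin genes described here are 8 named genes of the zebrafish hemoglobin chains: the alpha chains hbae1.1, hbae3, hbae5 and hbaa1 and the beta chains hbbe1.1, hbbe2, hbbe3 and hbba1. Probes with 1 gene symbol in the platform's probe table were assigned by that symbol, and others were left out. Each probe used was joined to its value by its position on the array grid. Of the 8 genes, 5 had a probe (9 probes), among 14462 genes with a probe on the array. For hbbe1.1, hbba1 and hbaa1 the probe table used here listed no probe with 1 gene symbol, so nothing is reported for them. A probe listed under several symbols would not have been counted. Values in all 3 samples were present for 4 genes (hbae1.1, hbae3, hbbe2 and hbbe3) of 5904 such genes in all, and hbae5 had values in 2 samples. The list is called embryonic, but hbaa1 and hbba1 are named for adult globins. As neither had a probe used here, all measured members are embryonic forms.

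Whole zebrafish embryos were placed at 24 hpf (hours post fertilization) in Aroclor 1254 at 71.9 mg/L for 24 h and collected at 48 hpf, while controls were kept in fish medium at 28.5 °C. The mixture consists of polychlorinated biphenyls and was sold for industrial use. Each of the 3 biological replicates is a 2-channel array that sets exposed against control embryos, so the comparison lies inside every value and all samples form 1 group. Strain, sex and number of pooled embryos are not given in the labels. The labels also do not say whether the replicates came from separate clutches, so each p-value reflects only these arrays. In limma it rests partly on a variance shared over all genes, not only on a gene's own spread.

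Every value below is a log2 ratio of the 2 channels as deposited, not a level of expression. Dyes were swapped in the design, and the labels do not say which condition is the numerator. "Positive" and "negative" therefore describe the deposited value, and the labels alone give no direction of exposure. The log base was taken as 2 from the range of the values, and a natural logarithm would also be compatible with them. As a reference for the sign, cyp1a, the cytochrome P450 enzyme induced through the aryl hydrocarbon receptor, stood at 7.07, 8.61 and 8.02 in replicates 1, 2 and 3. These are means of 2 measured probes, which gave 4.7, 5.3 and 5.9, and 9.4, 11.9 and 10.2. A positive value below thus has the sign that cyp1a had in every replicate.

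Hemoglobin is a tetramer of alpha and beta globin chains, each holding a heme group that binds oxygen. Zebrafish embryos use embryonic chains in their primitive red cells and replace them by adult chains as larvae grow. Alpha and beta globin genes lie next to each other in clusters and are transcribed almost only in red cells, under the erythroid factor Gata1. In RNA from whole embryos, a change in the number of red cells and a change in globin RNA per red cell cannot be told apart.

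In the RefSeq table of the GRCz12tu assembly the globin genes lay in 2 clusters. The larger held 12 genes, among them 3 copies of hbae1 and 3 of hbbe1 as well as hbae3 and the adult genes, and 4 of the 12 had a probe. The smaller held 4 genes in the order hbae4, hbbe3, hbbe2 and hbae5, and each had a probe. Other genes lay among them, 1 in the larger cluster and 2 in the smaller, so neighbour here means the next globin gene. The tandem hbae1 genes are known as near-identical copies, so signal on the hbae1.1 probe may include hbae1.2 and hbae1.3, which had no probe of their own in the probe table. No globin sequences were used here, and the identity between copies was not computed.

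The measured globins did not move in the same direction across the replicates. In replicate 2 each of the 8 probes with a value was positive. In replicate 1, 5 were positive and 3 negative. In replicate 3, 1 of the 6 probes with a value was positive and 5 were negative. By gene, 4 of 4 were positive in replicate 2 (48.8% of all 5904 genes were), 3 of 4 in replicate 1 (49.4% of all genes) and 0 of 4 in replicate 3 (45.7% of all genes). In replicate 3, however, hbae1.1 (-0.10) and hbae3 (-0.07) lay close to the all-gene median of -0.05. No globin had 1 sign in all 3 samples, where 19.7% of all genes were positive throughout and 23.1% negative throughout.

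**Figure D1:**
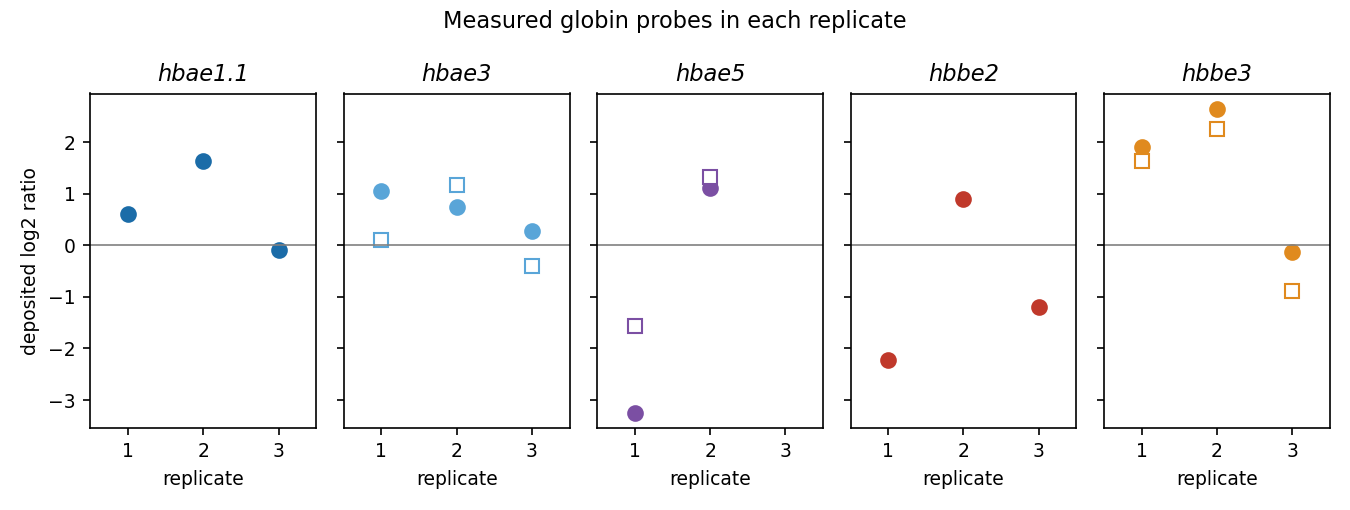
Deposited log2 ratio (vertical axis) of every globin probe with a value, by replicate (horizontal axis), with a panel for each gene. Filled circles and open squares are the different probes of a gene. All 8 probes lie above 0 in replicate 2, and in replicate 3 only 1 of 6 does.

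Among the alpha chains, hbae1.1 encodes an embryonic alpha globin of the larger cluster and was measured by 1 probe. Its ratio was 0.60, 1.63 and -0.10 in replicates 1, 2 and 3. It was highest in replicate 2 and just below 0 in replicate 3. The mean was 0.71 ± 0.87 (SD, n = 3), or 1.64-fold, with a 95% interval from -0.16 to 1.58 and an adjusted p of 0.37 in limma. The mean was 0.25 without replicate 2 and 1.12 without replicate 3.

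The gene hbae3, another embryonic alpha globin at the end of the larger cluster, had 2 measured probes. The probe annotated with a cDNA clone gave 1.05, 0.75 and 0.27, and the probe annotated with the RefSeq mRNA gave 0.11, 1.17 and -0.40. The first was positive in every replicate and the second changed sign, and they lay 0.94, 0.42 and 0.67 apart in replicates 1, 2 and 3. Averaged, hbae3 stood at 0.58, 0.96 and -0.07, a mean of 0.49 ± 0.52 (SD, n = 3; 1.40-fold). Its 95% interval ran from -0.19 to 1.17 and its adjusted p was 0.418 in limma. The mean was 0.26 without replicate 2 and 0.77 without replicate 3. Its spread was the smallest of the 4 globins measured throughout.

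The third alpha chain, hbae5 of the smaller cluster, had values in replicates 1 and 2 only. Its probes gave -3.24 and -1.56 in replicate 1 and 1.11 and 1.32 in replicate 2. Both were negative in replicate 1 and both positive in replicate 2, and as a gene it stood at -2.40 and 1.22. In a fit of all genes with at least 2 values, its mean of -0.59 ± 2.56 (SD, n = 2) had an adjusted p of 0.735 in limma, where replicate 3 is missing.

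Among the beta chains, hbbe3 had the largest positive mean. Of its 3 probes 2 had values, at 1.90, 2.65 and -0.14 for a probe annotated with a GenBank entry and 1.62, 2.25 and -0.88 for the probe annotated with the RefSeq mRNA. Both were high in replicates 1 and 2 and below 0 in replicate 3. They differed from each other by 0.27, 0.40 and 0.74, less than either differed between replicate 3 and the other replicates. The gene stood at 1.76, 2.45 and -0.51. Its mean was 1.23 ± 1.55 (SD, n = 3; 2.35-fold), with a 95% interval from -0.07 to 2.54 and an adjusted p of 0.324 in limma. The mean was 2.10 without replicate 3 and 0.62 without replicate 2.

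The gene hbbe2, the neighbour of hbbe3 in the smaller cluster, was measured by 1 probe and stood at -2.23, 0.91 and -1.19. It was the only one of the 4 globins measured in all samples with a negative mean, -0.84 ± 1.60 (SD, n = 3; 1.79-fold), with a 95% interval from -2.18 to 0.50 and an adjusted p of 0.468 in limma. Without replicate 2 the mean was -1.71 (adjusted p = 0.121, limma), and without replicate 1 it was -0.14. For each of the 4 genes, replicate 2 held the highest ratio, as it did for 39% of all genes.

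**Figure D2:**
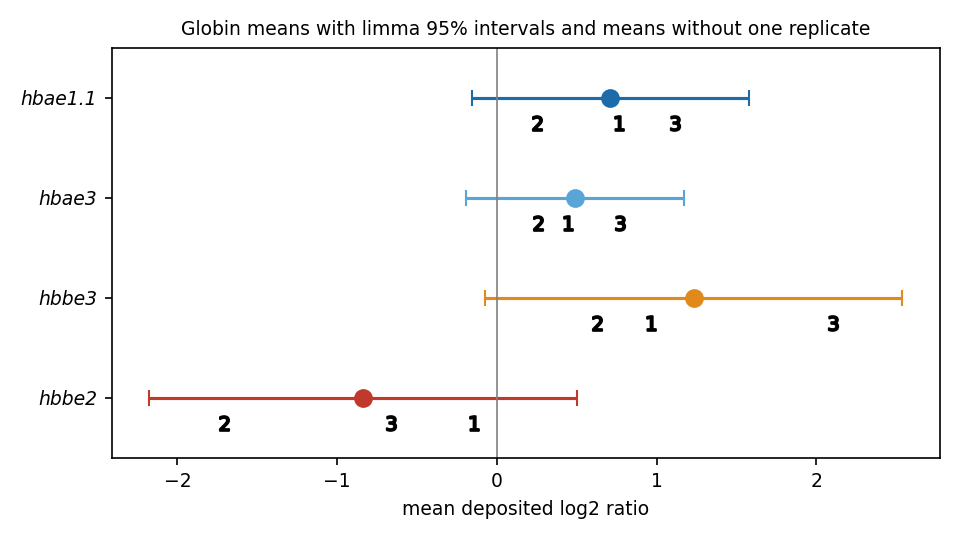
Mean deposited log2 ratio over 3 replicates (horizontal axis) of the 4 globins measured in all samples, with limma's 95% interval as bars. The digits below each bar mark the mean without that replicate. All 4 intervals include 0, and all 4 means without replicate 3 lie to the right of the means over all samples.

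None of the 4 genes passed an adjusted p of 0.05 in limma (1 of 5904 genes did, 0.0169%), and none reached an unadjusted p of 0.05 (16.1% of all genes did). Of the 6 globin rows measured in all samples, 0 passed in limma (0.0686% of 10200 rows did). At an unadjusted p of 0.05 in limma there were 2, the cDNA clone probe of hbae3 and the GenBank probe of hbbe3 (18.9% of all rows reached it). With the ordinary statistic, which uses only a row's or gene's own spread, 0 of the 6 rows reached it. The adjusted p by that statistic ran from 0.585 for hbae3 to 0.726 for hbbe2 over the 4 genes. An exact sign permutation test gave p = 0.5 for each of the 4 genes, 2-sided, and with 3 samples it cannot go below 0.25. The median of the 4 means was 0.60, beside -0.03 over all genes. By replicate, the globin median was 0.59, 1.29 and -0.31, beside all-gene medians of -0.01, -0.03 and -0.05.

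Among the 4 globins measured in all samples, the spread between replicates was widest for the beta chains. Wide spread was not limited to beta chains. The alpha chain hbae5 had an SD of 2.56 over 2 samples, and the alpha chain hbae4, not on the list, 1.15 over 3. The SD of 1.60 for hbbe2 exceeded that of 98.4% of all genes, and the SD of 1.55 for hbbe3 exceeded that of 98.1%. The alpha chains hbae1.1 and hbae3 exceeded 86.8% and 60.2%, and the median SD over all genes was 0.44.

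Placed among all genes of the same array, which does not depend on each array's scale, hbbe3 exceeded 98.7% of genes in replicate 1 and 99% in replicate 2, but 14.3% in replicate 3. In the same arrays hbbe2 exceeded 0.796%, 86.1% and 1.59% of genes. In replicate 1 hbae5 exceeded 0.593% of genes, so the neighbours hbbe2 and hbae5 lay at the low end of that array while hbbe3, the next globin beside hbbe2, lay near its high end. In replicate 2 hbae5 exceeded 91.9%. Of the larger cluster, hbae1.1 exceeded 82%, 95.9% and 44.9% of genes and hbae3 exceeded 81.2%, 87.3% and 47.9%.

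**Figure D3:**
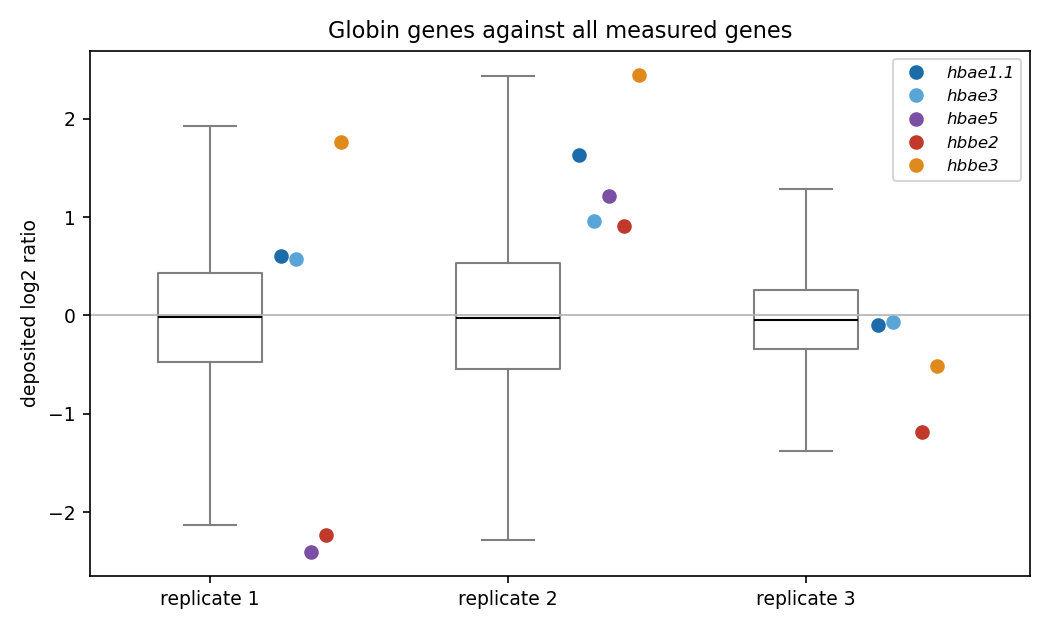
Deposited log2 ratio (vertical axis) of the globin genes (coloured points) beside all 5904 genes measured in all samples, by replicate. Boxes span the 25th to 75th percentile with the median as a line, and whiskers the 1st to 99th percentile. In replicate 1, hbbe2 and hbae5 lie below the lower whisker and hbbe3 lies near the upper one, and in replicate 2 all 5 globins lie above the box.

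Differences between globins within an array do not move when all of its values shift together. All 6 pairs among the 4 globins measured throughout were compared. The ratio of hbbe2 lay below those of the other three in every replicate. It lay below hbbe3 by 3.99, 1.54 and 0.68 in replicates 1, 2 and 3, a mean difference (hbbe3 minus hbbe2) of 2.07 ± 1.72 (SD, n = 3). The difference hbae1.1 minus hbbe2 was 2.83, 0.72 and 1.09, and hbae3 minus hbbe2 was 2.81, 0.05 and 1.12. In replicate 2 the order of hbae3 and hbbe2 rested on averaging the hbae3 probes. There the cDNA clone probe of hbae3 (0.75) lay below hbbe2 (0.91) and the RefSeq mRNA probe (1.17) above. Each of the 3 pairs with hbbe2 had an exact sign permutation p of 0.25, the smallest that 3 samples allow. Their adjusted p over the 6 pairs was 0.5 by that exact test. The other 3 pairs, among hbbe3, hbae1.1 and hbae3, had differences of both signs. In the order hbbe3, hbae1.1, hbae3 and hbbe2 by mean ratio, no neighbouring pair could reach p = 0.05 in the exact test with 3 samples, and hbae1.1 and hbae3 were 0.22 ± 0.39 (SD, n = 3) apart.

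Further globins were measured beside the members. The embryonic alpha globin hbae4, which lies next to hbbe3 and is not on the list, stood at -0.29, 1.37 and -0.83, again highest in replicate 2 and below 0 in replicate 3. Its mean was 0.09 ± 1.15 (SD, n = 3; adjusted p = 0.934, limma). The probes of the adult genes hbaa2 and hbba2 had no value in any sample, whereas 8 of the 9 probes of the listed globins had at least 1 (88.9%, against 45.4% of all probes with a gene). The rule by which rows were left without a value is not given in the sources used here.

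Globins outside the red cell had other patterns. Myoglobin (mb), which stores oxygen in muscle, stood at 1.38, 0.67 and 1.43, positive throughout. Its mean was 1.16 ± 0.43 (SD, n = 3; 2.24-fold), with an unadjusted p of 0.00406 and an adjusted p of 0.177 in limma, so it did not pass. Cytoglobin 1 (cygb1) stood at 0.75, 0.10 and 0.51. As gene values, mb and cygb1 had their lowest ratio in replicate 2, where the hemoglobin chains had their highest. For mb this came from 1 of its 2 probes, which fell to 0.23 in replicate 2. The other mb probe varied little and was lowest in replicate 3, at 1.11 in replicate 2 and 1.08 in replicate 3. Probes of cygb2 and of neuroglobin (ngb) had no value.

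The other genes of the red cell were counted from lists of further hemoglobin chains, heme synthesis and transport, red cell membrane and enzymes, and erythroid regulators with iron uptake. Myoglobin, the cytoglobins and neuroglobin stood on the first of these lists and were left out of the counts, a choice made after the values were seen. Of 54 listed genes, 42 had a probe and 21 were measured in all samples. None passed an adjusted p of 0.05 in limma (lowest 0.176), and 5 of 21 reached an unadjusted p of 0.05 (16.1% of all genes did), 4 of them positive and 1 negative. In replicate 2, 17 of 21 were positive (48.8% of all genes), in replicate 1 13 (49.4%) and in replicate 3 10 (45.7%). The highest ratio lay in replicate 2 for 16 of 21, as it did for 39% of all genes. The median of these genes was 0.18, 1.16 and -0.04 in replicates 1, 2 and 3. Over all samples it was 0.45, and over replicates 1 and 3 alone 0.13, beside -0.03 and -0.04 for all genes. In both replicates 1 and 3, 10 of 21 were positive (30.9% of all genes were), and 0 of 4 globins were.

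The heme synthesis list held the largest ratio of replicate 2 among the 21 genes. Here ppox, protoporphyrinogen oxidase, stood at -0.04, 3.65 and -0.20, and urod, uroporphyrinogen decarboxylase, at -0.19, 2.32 and -0.28. Both were near 0 in replicates 1 and 3 and strongly positive in replicate 2 alone. The gene alad, whose enzyme joins aminolevulinate molecules, stood at 0.18, 1.104 and 0.08. The gene hmbsb, hydroxymethylbilane synthase, was positive in each replicate at 2.02, 2.14 and 0.33 (unadjusted p = 0.00789, adjusted p = 0.195, limma). Of the 6 measured genes of this list, 5 were highest in replicate 2 (39% of all genes). In all samples 2 were positive and 1 negative (19.7% and 23.1% of all genes). The erythroid enzyme alas2, which starts heme synthesis in red cells and was chosen after its values were seen, stood at -0.28, 1.71 and -0.42.

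Of the 9 measured membrane and enzyme genes, 7 were highest in replicate 2 (39% of all genes) and 4 were positive in all samples (19.7%). The ankyrin ank1a, which ties the membrane to the spectrin skeleton, hardly varied, at 0.98, 1.06 and 1.12 (unadjusted p = 0.0033, adjusted p = 0.176, limma). The water channel aqp1a.1, also present in vessels, stood at 0.55, 1.54 and 0.22, and the nucleotidase gene nt5c2l1 at 0.14, 1.63 and 0.46. The Rh-associated glycoprotein gene rhag, an ammonium transporter of the red cell membrane, went the other way at -0.73, 0.10 and -1.20. Its replicates fell in the order seen for hbae4, with the highest in replicate 2 and the lowest in replicate 3.

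Of the erythroid regulators, 5 of 15 genes on the array were measured in all samples. Of these 5, 3 were highest in replicate 2 (39% of all genes). In all samples 3 were positive and 1 negative (19.7% and 23.1% of all genes). The zinc finger gene znfl2a stood at 1.05, 2.83 and 0.31 (unadjusted p = 0.023, adjusted p = 0.241, limma), and nfe2, an erythroid bZIP transcription factor, at 0.47, 2.28 and 0.12. Both were positive in each replicate and highest in replicate 2. The iron transporter slc11a2 stood at 0.19, 0.93 and 0.24. In contrast bcl11aa, whose mammalian counterpart BCL11A represses fetal globin genes, was negative in each replicate at -0.28, -1.06 and -0.82 (unadjusted p = 0.0319, adjusted p = 0.263, limma). Probes of gata1a and klf1, the main erythroid activators, had no value.

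**Figure D4:**
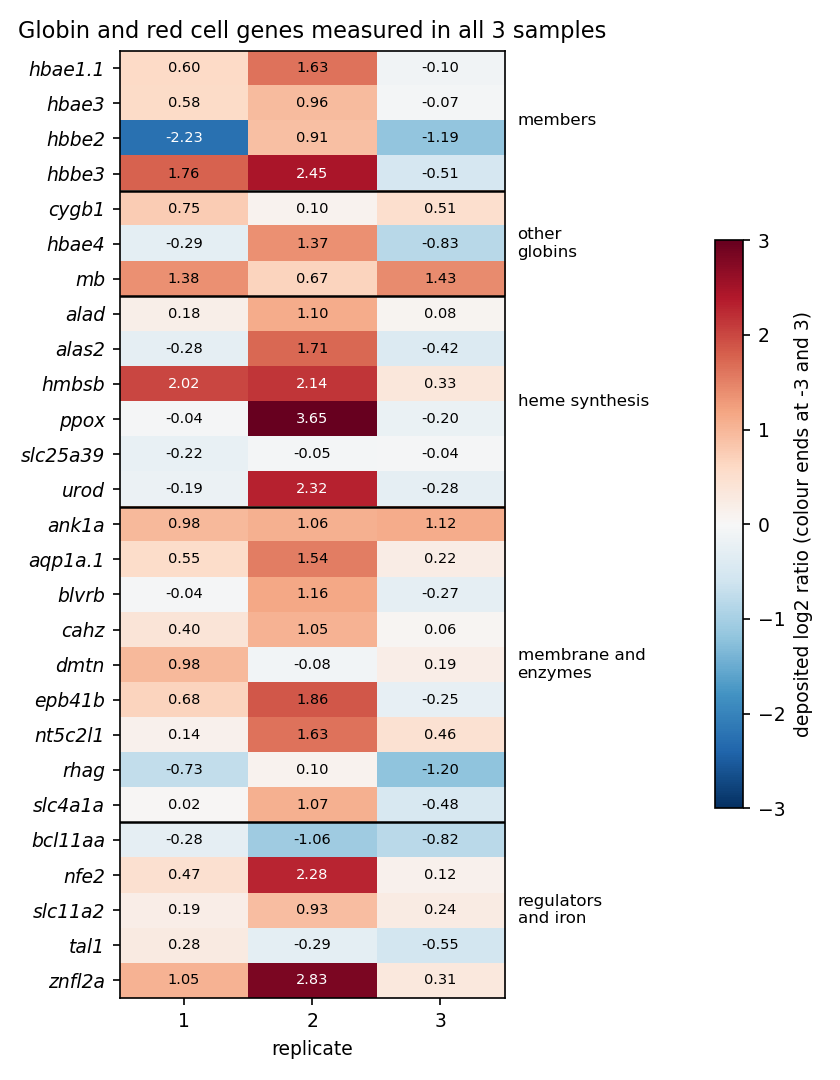
Deposited log2 ratio of the 4 listed globins, the 21 other red cell genes and mb and cygb1, which lie outside the red cell (rows, grouped by list), in each replicate (columns). Red is positive and blue negative, with the colour ending at -3 and 3 and the value printed in each cell. The middle column, replicate 2, holds the highest ratio of all 4 globins and of 16 of the 21 other red cell genes. Over all genes that share was 39%.

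The genes nearest to the globin mean were found by the root mean square difference of their 3 ratios from the mean of the 4 globins (0.18, 1.48 and -0.47), over 5900 other genes. In replicate 1 that mean joins ratios from -2.23 (hbbe2) to 1.76 (hbbe3). A gene near the mean therefore need not lie near each globin. The nearest was the dehydrogenase gene dhrs9 (0.13, 1.36 and -0.42; root mean square difference 0.0833), followed by atp5if1b, an inhibitory factor of the mitochondrial ATP synthase (0.12). Then came the fin fold gene and3 (0.121), the endocytic adaptor dab2 (0.123) and the Wnt receptor fzd5 (0.127). With 3 samples this is a description only. The 21 other red cell genes ranked from 35 to 5022 of 5900 in this order, with a median rank of 498. At the near end were the biliverdin reductase gene blvrb (rank 35), the anion exchanger slc4a1a (38), alas2 (67) and hbae4 (112), and at the far end hmbsb (3950), ppox (4198) and bcl11aa (5022), all named here for their rank.

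Replicate 2, in which all globins were positive, also differed from the others over the whole array. It had 10487 rows with a value, against 12735 and 12062 in replicates 1 and 3. Its SD over genes, 0.92, lay closer to the 0.80 of replicate 1 than the 0.52 of replicate 3 did. Its Pearson correlation across genes, which are not independent replicates, was 0.289 with replicate 1 and 0.301 with replicate 3, while replicates 1 and 3 gave 0.469. Markers of other cells were mixed in that replicate: 3 of 4 measured myeloid genes, 2 of 4 endothelial genes and 5 of 9 genes of other embryonic tissues were positive, with medians of 0.24, -0.01 and 0.08. Over all genes 48.8% were positive there. Of the 13 myeloid probes 5 had a value, of the 10 endothelial probes 5, and of the 26 probes for tissues such as muscle, skin and heart 24. The part of these array properties in the globin ratios was not tested.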

How the data were processed

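RNA from both conditions carried Cy3 or Cy5 and was hybridized to 2-channel oligonucleotide arrays, per the labels' protocols (2 µg of total RNA each). The authors deposited 1 log ratio per row and sample, 45219 rows, whose base is not stated. Background correction, normalization and the rule for empty rows were not given in the sources used here. Array signal was not used, and precision is limited by having 3 samples. The deposited values were taken as log2 from their range and used unchanged, and every fold rests on that.

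Probes were joined to rows by a grid position inferred from these data after the values were seen. Of the 45219 rows, 21060 were joined to a probe with 1 gene symbol, and the other 24159 were not. Without the globins and cyp1a, mean ratios of probes of 1 gene correlated at r = 0.755 over 2166 pairs on the grid, and at 0.0255 over 440 pairs with row numbers as given. Pairs are not independent replicates.

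A gene's value was the mean of its measured rows in each sample. Genes with a value in all 3 samples were fitted with limma 3.58.1 in R 4.3.3 (intercept against 0, 2-sided, Benjamini-Hochberg over 5904 genes, adjusted p threshold 0.05; 2 residual and 4.6 prior degrees of freedom). Rows were fitted likewise. The fit was tested on simulated data. Globin members, gene lists and tests were chosen with earlier results of these data known. Named are all members, hbae4, cyp1a, the 4 genes with the smallest p of each red cell list, and the 5 genes nearest to the globin mean. Outside this rule, alas2, blvrb, slc4a1a and genes without a value were named after their values were seen. Alternatives were other scalings, a position trend, other summaries, filters, weights and statistics, each replicate left out and the row numbers as given. No sequence table was used here.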

Additional observations from a re-analysis of the deposited data

How the results depend on the processing

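Under 12 alternative settings, the number of globin genes, globin rows and other red cell genes past an adjusted p of 0.05 in limma stayed at 0. It was also 0 for the other red cell genes with or without the listed globins outside the red cell (mb and cygb1), a choice made after seeing the data. Outside the row numbers as given, 0 to 2 globin genes reached an unadjusted p of 0.05. There were 2 of 5 without replicate 3, 1 of 4 with array weights and 1 of 4 without replicate 2. Over all genes these settings gave 734 of 5963, 1144 of 5904 and 1239 of 6692. Of the 23 to 25 other genes of the red cell lists, mb and cygb1 included, 2 to 8 reached it. The 2 came with the ordinary statistic (605 of 5904 genes in all). The 8 came after equal scaling, without replicate 1 and without replicate 3 (1100 of 5904, 606 of 5934 and 734 of 5963 genes in all). The globin median of 0.60 over 4 genes was 0.51 after equal scaling, 0.53 after quantile normalization and 0.53 with the position trend removed. With genes measured in at least 2 samples it was 0.49 over 5 genes. Over 4 genes it was 0.60 without replicate 1 and 0.25 without replicate 2. Without replicate 3 it was 0.77, but over 5 genes, because hbae5 then entered, so this value is not for the same genes. The globin median was 0.49 with hbae4 added, chosen after seeing the data. With the row numbers as given, which pair other rows with the genes, it was -0.76 over 3 genes and the mean of hbbe3 turned to -0.86. The sign of each globin mean held under every other setting. With array weights (0.99, 0.47 and 2.15 for replicates 1, 2 and 3) the means were 0.32 for hbae1.1, 0.24 for hbae3, 0.50 for hbbe3 and -1.20 for hbbe2. Over all genes, 1 passed in the main setting, 40 after equal scaling, 28 after quantile normalization, 40 with array weights, 20 without replicate 3, 8 with the row numbers as given and 0 with the ordinary statistic, where 605 reached an unadjusted p of 0.05. The cause was not tested. No paired analysis was possible because the samples form 1 group and the contrast lies within each value. The signal behind each value is not known.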
